A study of Mus musculus with 4 samples.

Results

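Mitochondrial ribosomal protein genes are described here in fully grown and mature mouse oocytes. They were taken as every gene symbol made of Mrpl or Mrps, a number and at most 1 further letter. This gave 76 of 23309 symbols, 47 named Mrpl for the large subunit and 29 named Mrps for the small subunit, each on 1 row of every file. Oocytes of ICR mice gave 4 mRNA libraries, 1 per group and each from 60 cells lysed together, which were read from both ends on an Illumina instrument. The groups were MII oocytes labelled Erk-/-, wild-type MII oocytes, Erk-/- GV oocytes and wild-type GV oocytes. GV (germinal vesicle) oocytes are fully grown and still arrested in the first meiotic division, and MII (metaphase II) oocytes are mature eggs. All females were 21 to 23 days old, and the protocols name PMSG and hCG, hormones that drive follicle growth and ovulation. The labels do not say which Erk gene was deleted, with which Cre or allele, or which hormones each library received, and Btg4-/- females are the ones their treatment text speaks of. The title of the series asks how maternal mRNA degradation depends on ERK.

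Mitochondria keep a small genome and translate its messages on ribosomes of their own. The RNA of these ribosomes comes from the mitochondrial genome, while every protein of them is encoded in the nucleus, made in the cytosol and imported. The large subunit joins amino acids and the small subunit reads the message. The proteins made there are core parts of the respiratory chain and of ATP synthase. Transcription is nearly silent in the fully grown oocyte, whose nuclear-encoded messages are a stored stock that is in large part removed during maturation.

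The values are FPKM, fragments per kilobase of transcript scaled to the mapped fragments of the library, and they do not measure mRNA per oocyte. Less mRNA of a gene in each oocyte can therefore not be told apart from more mRNA of other genes. In GV oocytes, the ERK1 gene Mapk3 had 52.3 FPKM in Erk-/- against 333 in wild type. In MII oocytes, Mapk3 had 34.3 FPKM in the library labelled Erk-/- against 25.7 in wild type. The level of Mapk3 thus goes against the label at MII, and that library is called the library labelled Erk-/- throughout. Of 10 oocyte markers, 9 were above 0 in every library and Sohlh1 was listed at 0 in all 4, and the markers summed to 11040 to 16469 FPKM. The 12 markers of granulosa and cumulus cells summed to 14.6 to 29.4 FPKM, with 7 of them listed at 0 in labelled Erk-/- MII, 9 in wild-type MII, 9 in Erk-/- GV and 8 in wild-type GV. Amh, Fshr, Foxl2, Inhba, Tnfaip6 and Ptx3 were listed at 0 in all 4. Cyp19a1 had 10.8 FPKM in labelled Erk-/- MII, 21.8 in wild-type MII and 15.5 in wild-type GV and was listed at 0 in Erk-/- GV, where Nr5a2 had 17 and Inha 11.3 FPKM. The part of such cells in the results was not tested. No group has a replicate, so nothing below is tested, and each difference is one between single libraries.

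The whole set took a smaller share of the library at MII than at GV. Summed over the 76 genes, it reached 1608 FPKM (0.388% of all FPKM) in the MII library labelled Erk-/- and 1403 FPKM (0.350%) in wild-type MII. In the GV libraries the sum was 2867 FPKM (0.681%) in Erk-/- and 4179 FPKM (0.922%) in wild type. The median member had 8.94 FPKM in labelled Erk-/- MII, 2.99 in wild-type MII, 22.9 in Erk-/- GV and 33.3 in wild-type GV. The wild-type GV library held the highest value of 45 of the 75 members that reached a mean of 1 FPKM, or 60%, against 35.8% of all 9990 genes that reached it. By subunit, these were 32 of 46 Mrpl (69.6%) and 13 of 29 Mrps members (44.8%). Mrpl14 alone made up 16% of the wild-type GV sum, and without it the sums were 1576 FPKM in labelled Erk-/- MII, 1309 in wild-type MII, 2678 in Erk-/- GV and 3510 in wild-type GV.

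**Figure D1:**
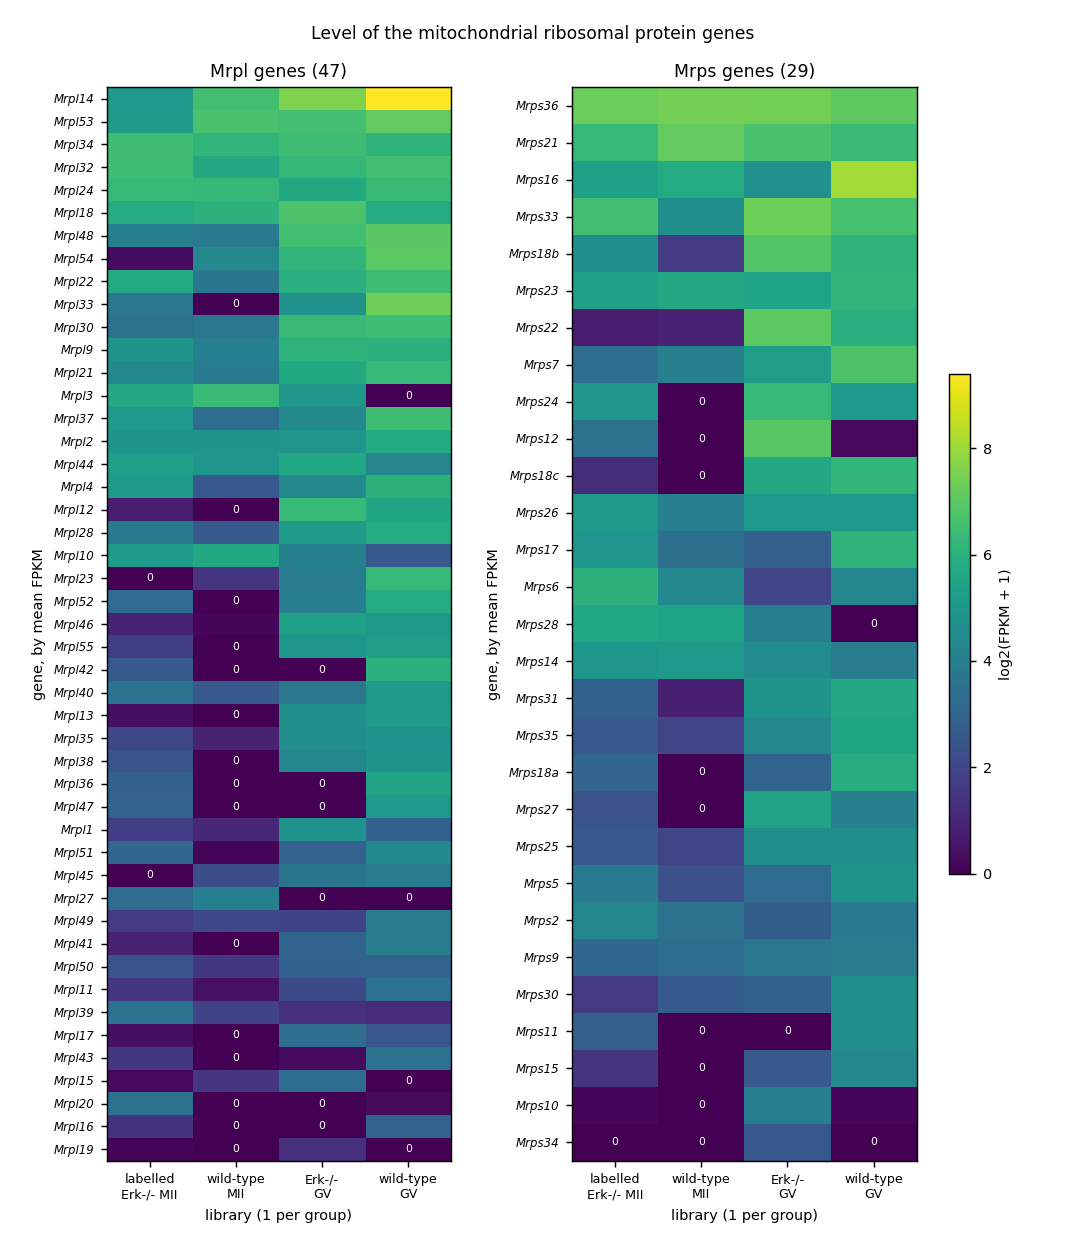
Level of each of the 47 Mrpl and 29 Mrps genes as log2(FPKM + 1) (colour) in the 4 libraries (columns), with genes ordered by mean FPKM and a 0 written where a gene is listed at 0. The wild-type MII column is the darkest and holds 24 of the zeros, while the wild-type GV column is the lightest.

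The most abundant large-subunit messages held a pair that varied widely and a set that did not. Mrpl14, which encodes a protein with a bacterial counterpart at the face of the large subunit (mm9 chr17:45823321-45835444), had 32.2 FPKM in labelled Erk-/- MII and 93.4 in wild-type MII, against 189 in Erk-/- GV and 669 in wild-type GV. It was lower at MII than at GV in both genotypes and lower in the labelled Erk-/- libraries than in wild type at both stages. Mrpl53, whose protein is found in mitochondrial ribosomes and not in bacterial ones, had 34.4 FPKM (deposited bounds 28.8 to 39.8) in labelled Erk-/- MII and 103 (93.5 to 113) in wild-type MII. At GV it had 94.4 (83.9 to 105) in Erk-/- and 140 (128 to 152) in wild type, so the MII library labelled Erk-/- stands below the other 3. Its locus overlaps that of Ccdc142, and no source used here says that reads were counted by strand.

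Levels of Mrpl34, Mrpl32, Mrpl24 and Mrpl18, all large-subunit proteins with bacterial counterparts, stayed within 2-fold over the 4 libraries. Mrpl34 (mm9 chr8:73988825-73989652) had 90.1 FPKM in labelled Erk-/- MII, 70.3 in wild-type MII, 86.9 in Erk-/- GV and 67.7 in wild-type GV. Mrpl24, whose locus overlaps that of Rrnad1, had 76.4 FPKM in labelled Erk-/- MII, 75 in wild-type MII, 50.6 in Erk-/- GV and 79.0 in wild-type GV. Mrpl18 had 55.2 FPKM in labelled Erk-/- MII, 64.9 in wild-type MII, 107 in Erk-/- GV and 54.2 in wild-type GV. Mrpl32, whose protein is cut to its mature form by a protease of the inner mitochondrial membrane, had 87.1 FPKM in labelled Erk-/- MII, 50.2 in wild-type MII, 76.1 in Erk-/- GV and 95.8 in wild-type GV. For these 4 genes no library stands 2-fold from the rest as deposited, although after median-of-ratios scaling (which divides each library by its median ratio to the libraries' geometric mean) the wild-type MII level of Mrpl18 was over 2-fold above that at GV (log2 ratio 1.07), and its Erk-/- GV level was over 2-fold above that in wild-type GV (1.05).

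Among small-subunit messages, Mrps36 was the most abundant and the steadiest. It had 153 FPKM (141 to 164) in labelled Erk-/- MII, 173 (161 to 185) in wild-type MII, 166 (153 to 180) in Erk-/- GV and 131 (121 to 141) in wild-type GV (mm9 chr13:101505895-101514614). Its highest value was 1.32 times its lowest, the smallest spread of the 46 tested members above 0 in all 4 libraries. The protein was first listed as a ribosomal one and was later assigned to the oxoglutarate dehydrogenase complex. The GENCODE M21 annotation holds 3 processed pseudogenes named for Mrps36, between which reads could be shared. Mrps21 had 77.7 FPKM in labelled Erk-/- MII, 138 in wild-type MII, 101 in Erk-/- GV and 81.9 in wild-type GV. Mrps23, a protein particular to mitochondrial ribosomes, had 40.1 FPKM in labelled Erk-/- MII, 49.9 in wild-type MII, 42.8 in Erk-/- GV and 70.6 in wild-type GV. All 3 stayed within 2-fold as deposited, while after scaling Mrps36 (log2 ratio 1.22) and Mrps21 (1.57) passed 2-fold, higher at MII, in wild-type maturation.

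Mrps16, Mrps33 and Mrps18b, 3 more of the most abundant small-subunit messages, each had 1 library far from the others. Mrps16, whose human counterpart is mutated in a fatal mitochondrial disease of the newborn (mm9 chr14:21210453-21212777), had 40.0 FPKM in labelled Erk-/- MII, 53.7 in wild-type MII and 26.0 in Erk-/- GV, against 268 in wild-type GV. Mrps33 had 94.1 FPKM (87.0 to 101) in labelled Erk-/- MII, 24.5 (21.0 to 28.0) in wild-type MII, 156 (146 to 167) in Erk-/- GV and 100 (92.8 to 107) in wild-type GV. Mrps18b had 23.6 FPKM in labelled Erk-/- MII, 2.20 in wild-type MII, 113 in Erk-/- GV and 67.4 in wild-type GV. The wild-type GV library is thus high for Mrps16, and the wild-type MII library is low for Mrps33 and Mrps18b.

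**Figure D2:**
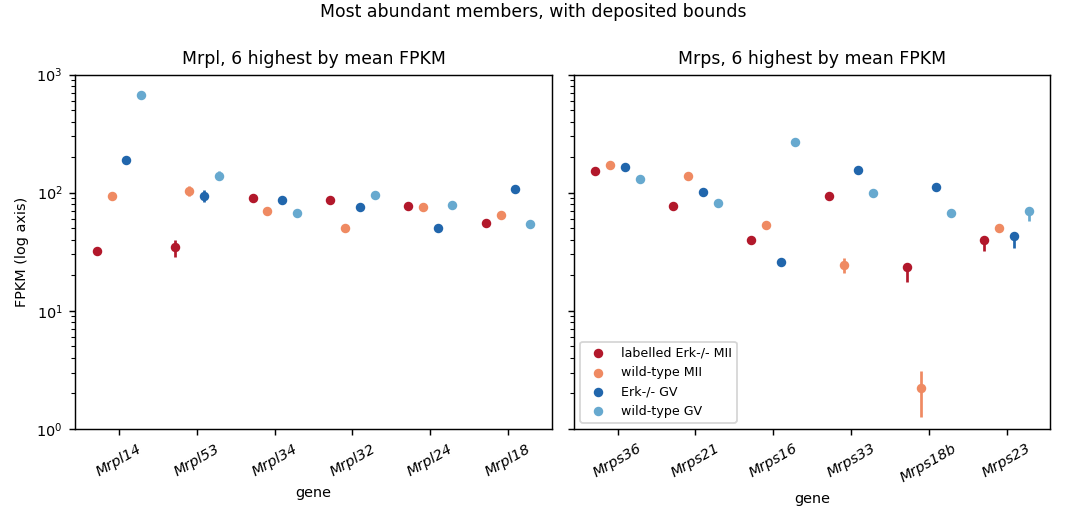
FPKM (log axis) of the 6 Mrpl and 6 Mrps genes with the highest mean, 1 point per library, with the deposited confidence bounds as vertical lines where the value lies within them. Points of Mrpl34, Mrpl24, Mrps36 and Mrps23 lie close together, whereas Mrps18b ranges from 2.20 FPKM in wild-type MII to 113 in Erk-/- GV.

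Over the 46 tested members above 0 in all 4 libraries, the highest value was a median of 8.15 times the lowest. Under 2-fold apart were 9 of them (Mrps36, Mrpl34, Mrpl24, Mrps23, Mrps21, Mrps9, Mrpl2, Mrpl32 and Mrpl18), and 18 were at least 10-fold apart. Mrpl2, the counterpart of a core bacterial protein of the peptidyl transferase region, had 27.7 FPKM in labelled Erk-/- MII, 27.8 in wild-type MII, 28.8 in Erk-/- GV and 52.5 in wild-type GV. Reaching at least 10 FPKM in every library was seen for 20 members, and 6 members reached it in none (Mrpl15, Mrpl16, Mrpl17, Mrpl19, Mrpl50 and Mrps34). Matching values over all genes were not computed for these spreads and counts, so they do not set the members apart. Mrpl19 was the only member under the mean of 1 FPKM, with 0.131 FPKM in labelled Erk-/- MII, 1.38 in Erk-/- GV and a listing at 0 in both wild-type libraries.

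The members lie on 17 chromosomes, and some of their promoters hold motifs that the choice of genes did not use. RefSeq windows of 300 bases (250 before and 50 after the gene start, GRCm38.p6) were matched for 67 of the 76 members. Letters of the binding motif of ETS factors such as GABP, CCGGAAG, were found on either strand in 23 of these 67 windows (34.3%), against 9.12% of all 27025 windows. The letters ATGGCGGC of a YY1 motif were found in 12 (17.9%, against 2.38%), and those of the nuclear respiratory factor NRF1, GCGC and TGCGC with any 1 base between them, in 12 (17.9%, against 4.78%). The letters TATAAA were found in 4 (5.97%, against 14.2%). Median GC content was 58.0% in the members' windows and 52.7% in all windows, and none of the motifs contains another. A match is a description of the letters, not a sign that the factor binds in oocytes.

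Divergent neighbours were found for some of the set: 17 of 76 members have another protein-coding gene on the opposite strand starting 26 to 935 bases away in GENCODE M21. Only pairs within 1000 bases and with a gap between their starts were counted, so genes that overlap at their starts were left out. The share among all protein-coding genes was not computed, so this count does not set the members apart. Mrpl46 (mm9 chr7:85920227-85927975) and Mrps11 (chr7:85928017-85937874) are a large- and a small-subunit gene with 41 bases between them in the deposited loci, and their windows share 141 bases. This pair is divergent by the strands of its windows, but it is not among the 17 counted from GENCODE M21. Their levels differed. Mrpl46 had 0.841 FPKM in labelled Erk-/- MII, 0.103 in wild-type MII, 39.4 in Erk-/- GV and 31.7 in wild-type GV. Mrps11 had 6.21 FPKM in labelled Erk-/- MII and 23.6 in wild-type GV and was listed at 0 in wild-type MII and in Erk-/- GV. The partner that is high in Erk-/- GV is thus Mrpl46 alone. Mrps27 starts 81 bases from Ptcd2, another gene of mitochondrial RNA, and both were lower at MII. Mrps27 had 4.30 FPKM in labelled Erk-/- MII, 41.4 in Erk-/- GV and 15.8 in wild-type GV and was listed at 0 in wild-type MII, while Ptcd2 had 0.0600 FPKM in labelled Erk-/- MII, 23.4 in Erk-/- GV and 36.8 in wild-type GV and was likewise listed at 0 in wild-type MII. Not all neighbours went with their members, and the pairs were not counted by direction. Helq, 29 bases from Mrps18c, had 104 FPKM in wild-type MII and 24.7 in wild-type GV. Mrps18c was listed at 0 in wild-type MII and had 74.2 FPKM in wild-type GV. In the libraries labelled Erk-/- Helq was lower at MII (10.7 FPKM, against 44.4 at GV), as was Mrps18c. Shown for reading are the windows of the most abundant gene of each subunit (chr17:45686099-45686398, + strand, and chr13:100744610-100744909, - strand), of the divergent pair (chr7:78783040-78783339, - strand, and chr7:78782881-78783180, + strand) and of Mrps27 (chr13:99344536-99344835, + strand), all on GRCm38.p6, 5′ to 3′, with the motif letters above in capitals on either strand (none in Mrps36).
Mrpl14 promoter: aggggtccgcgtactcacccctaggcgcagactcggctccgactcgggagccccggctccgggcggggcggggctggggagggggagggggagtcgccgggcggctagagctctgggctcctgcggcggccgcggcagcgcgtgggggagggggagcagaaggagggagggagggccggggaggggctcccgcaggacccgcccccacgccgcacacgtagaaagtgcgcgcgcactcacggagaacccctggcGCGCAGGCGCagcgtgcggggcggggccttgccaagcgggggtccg
Mrps36 promoter: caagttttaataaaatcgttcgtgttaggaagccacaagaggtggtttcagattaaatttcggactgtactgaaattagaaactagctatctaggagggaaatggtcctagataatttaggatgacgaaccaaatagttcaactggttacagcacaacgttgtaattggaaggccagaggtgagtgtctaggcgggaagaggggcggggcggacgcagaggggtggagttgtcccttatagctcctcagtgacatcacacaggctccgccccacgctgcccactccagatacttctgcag
Mrpl46 promoter: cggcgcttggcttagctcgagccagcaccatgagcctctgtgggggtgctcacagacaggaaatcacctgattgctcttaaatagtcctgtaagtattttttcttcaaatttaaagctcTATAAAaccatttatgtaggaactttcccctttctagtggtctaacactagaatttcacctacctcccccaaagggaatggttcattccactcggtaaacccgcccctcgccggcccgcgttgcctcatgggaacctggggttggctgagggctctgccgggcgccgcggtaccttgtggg
Mrps11 promoter: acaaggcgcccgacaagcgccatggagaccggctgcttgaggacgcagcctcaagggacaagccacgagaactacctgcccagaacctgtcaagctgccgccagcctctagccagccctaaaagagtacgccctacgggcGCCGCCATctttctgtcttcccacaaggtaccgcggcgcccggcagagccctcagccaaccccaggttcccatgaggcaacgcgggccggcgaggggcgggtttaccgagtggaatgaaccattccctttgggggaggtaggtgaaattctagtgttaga
Mrps27 promoter: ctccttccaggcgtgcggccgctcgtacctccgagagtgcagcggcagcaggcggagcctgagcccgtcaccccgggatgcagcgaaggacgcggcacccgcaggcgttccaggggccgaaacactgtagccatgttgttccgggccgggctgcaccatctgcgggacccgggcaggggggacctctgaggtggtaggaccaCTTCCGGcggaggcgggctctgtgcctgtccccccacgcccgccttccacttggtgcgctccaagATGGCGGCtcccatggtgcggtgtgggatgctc

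Comparisons between libraries were made as log2 ratios of FPKM + 1, which understate the change of low genes, and a gene was called higher or lower when it was at least 2-fold apart on that scale. The 75 members and 9990 genes of all kinds with a mean of at least 1 FPKM entered. For single genes the fold is that of the FPKM themselves, with nothing added, and none is given against a value of 0. Because a 0 in such files may stand for an estimate that failed, those genes are only described as listed at 0.

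In wild-type oocytes most of these messages were lower at MII than at GV. Of 75 members, 50 (66.7%) were at least 2-fold lower, against 49.6% of all genes tested, and 6 (8%) were higher, against 20.6%. The median log2 ratio was -2.61 over the members and -0.97 over all genes. Among the 48 members above 0 in both libraries the median level at MII was 5.31-fold lower. Of the 50 lower members, 19 were listed at 0 in wild-type MII.

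The lowest ratios of wild-type maturation included small proteins and Mrps18 paralogs. Mrpl33, among the smallest proteins of the large subunit (mm9 chr5:31916324-31925017), was listed at 0 in wild-type MII and had 159 FPKM in wild-type GV. Mrps18c (74.2 FPKM in wild-type GV), Mrpl42 (63.1) and Mrps18a (56.4) were also listed at 0 in wild-type MII. Mrpl46 had 0.103 FPKM (0 to 0.257) in wild-type MII and 31.7 (23.9 to 31.8) in wild-type GV, and Mrpl51 had 0.131 (0 to 0.291) in wild-type MII and 21.1 (16.9 to 22.0) in wild-type GV. The bounds of both MII values reach 0, so no fold is given. Mrps22, mutated in a human mitochondrial disease, was 65.5-fold lower, with 0.930 FPKM in wild-type MII and 60.9 in wild-type GV. Mrpl12, whose human protein belongs to the ribosome's stalk and also binds the mitochondrial RNA polymerase, was listed at 0 in wild-type MII and had 44.8 FPKM in wild-type GV.

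A small group was higher at MII in wild type, and most of it was listed at 0 in wild-type GV. Mrpl3 (mm9 chr9:104955598-104979806), Mrps28 and Mrpl27 had 78.4, 42.2 and 15.5 FPKM in wild-type MII, and all were listed at 0 in wild-type GV. Mrpl15 had 1.82 FPKM in wild-type MII and was also listed at 0 in wild-type GV. Mrpl10, whose protein is the base of the ribosomal stalk (mm9 chr11:96902900-96910527), had 50.8 FPKM (43.1 to 52.8) in wild-type MII and 5.29 (3.94 to 6.47) in wild-type GV, 9.6-fold higher. Mrps14 had 31.8 FPKM (27.2 to 33.3) in wild-type MII and 14.2 (11.7 to 15.7) in wild-type GV, 2.24-fold higher. Mrpl10 and Mrps14 are therefore the members called higher with a value above 0 in both wild-type libraries.

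In the libraries labelled Erk-/-, fewer members were lower at MII. Of 75 members, 35 (46.7%) were at least 2-fold lower than in Erk-/- GV, against 35.6% of all genes tested, and 14 (18.7%) were higher, against 22.9%. The median log2 ratio was -0.73 over the members and -0.26 over all genes. The 65 members above 0 in both libraries had a median level at MII that was 1.93-fold lower, and 3 of the 35 lower members were listed at 0 in labelled Erk-/- MII.

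The lowest ratios here were those of Mrps22, Mrpl54, Mrpl12 and Mrpl46. Mrps22 had 0.691 FPKM (0.297 to 1.11) in labelled Erk-/- MII and 128 in Erk-/- GV, 185-fold lower. Mrpl54, a protein particular to mitochondrial ribosomes (mm9 chr10:80727467-80729671), had 0.217 FPKM (0 to 0.461) in labelled Erk-/- MII and 70.2 in Erk-/- GV, with bounds at MII that reach 0. Mrpl12 was 111-fold lower (0.696 FPKM in labelled Erk-/- MII and 77.1 in Erk-/- GV) and Mrpl46 46.9-fold lower. At the other end, Mrps6 had 63.7 FPKM (57.2 to 70.3) in labelled Erk-/- MII and 2.89 (1.35 to 4.43) in Erk-/- GV, 22.1-fold higher. The locus of Mrps6 overlaps that of Slc5a3. Mrpl39 was 6.74-fold higher (10.3 FPKM in labelled Erk-/- MII and 1.53 in Erk-/- GV) and Mrps17 4.48-fold higher (28.6 and 6.39 FPKM in the same libraries), while Mrpl20 had 10.4 FPKM in labelled Erk-/- MII and was listed at 0 in Erk-/- GV. Of the 14 higher members, 7 were listed at 0 in Erk-/- GV.

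The maturation calls of the genotypes were then set side by side. Lower in both were 30 of 75 members (40.0%, against 26.7% of all genes tested), higher in both were 3 (4%, against 11.4%) and neither in both were 11 (14.7%, against 15.7%). The 3 higher in both were Mrpl10, Mrpl27 and Mrps28. Lower in wild type only by this rule of size were 20. Of these, 13 were neither in the labelled Erk-/- libraries (17.3% of members, against 18.4% of all genes tested). The other 7 were higher there (9.33%, against 4.47%). Across members, which are not replicates and come from the same 4 libraries, the 75 pairs of ratios gave Pearson's r of 0.32 and Spearman's rho of 0.30, against 0.52 and 0.53 over all 9990 genes.

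**Figure D3:**
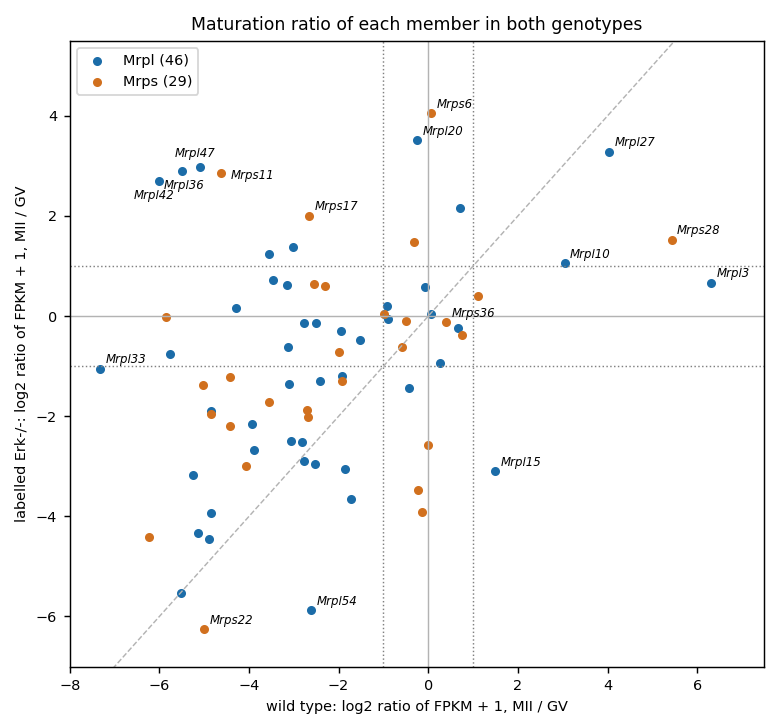
Log2 ratio of FPKM + 1, MII over GV, of each of 75 members in the libraries labelled Erk-/- (vertical) and in wild type (horizontal); dotted lines mark 2-fold and the dashed line marks equal ratios. Most points lie left of 0 and above the dashed line, with Mrpl36, Mrpl42, Mrpl47 and Mrps11 at the upper left.

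In GV oocytes, before maturation, the genotypes already differed for many of these genes. Of 75 members, 26 (34.7%) were at least 2-fold lower in Erk-/- than in wild type, against 22.9% of all genes tested, and 12 (16%) were higher, against 18.4%. The median log2 ratio was -0.52 over the members and -0.06 over all genes. Over the 76 members, log2 levels in the 2 GV libraries gave Pearson's r of 0.49 and Spearman's rho of 0.60, against 0.73 and 0.75 over all 9990 tested genes.

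Several members had a sizeable level in 1 GV library and were listed at or near 0 in the other. Mrpl42, Mrpl36, Mrpl47 and Mrps11 were listed at 0 in Erk-/- GV and had 63.1, 44.3, 33.0 and 23.6 FPKM in wild-type GV. In the other direction, Mrps12 (mm9 chr7:29524660-29526800), which encodes a protein of the decoding centre, had 123 FPKM in Erk-/- GV and 0.178 in wild-type GV. Mrps10 had 15.8 FPKM (12.9 to 18.8) in Erk-/- GV and 0.107 (0 to 0.517) in wild-type GV, and Mrpl3 (30.6 FPKM) and Mrps28 (15.8 FPKM) were listed at 0 in wild-type GV. No second GV library of either genotype checks these gaps. Mrpl14 was 3.53-fold lower in Erk-/- GV, Mrps16 10.3-fold lower and Mrps17 10.7-fold lower (6.39 FPKM in Erk-/- GV and 68.5 in wild-type GV).

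At MII more members were higher in the library labelled Erk-/- than were lower. Of 75 members, 32 (42.7%) were at least 2-fold higher than in wild type, against 31.4% of all genes tested, and 7 (9.33%) were lower, against 7.43%. The median log2 ratio was 0.76 over the members and 0.31 over all genes. Of the 39 called members 82.1% were higher, close to the 80.9% of all called genes. After median-of-ratios scaling 69.2% were (27 higher and 12 lower), against 59.1% of all called genes. Among the 50 members above 0 in both MII libraries the median level was 1.41-fold higher in the library labelled Erk-/-, and 17 of the 32 higher members were listed at 0 in wild type. With genes listed at 0 in any library left out, 15 of 46 members (32.6%) were higher, against 28.4% of all such genes. The label of that library is the one that the level of Mapk3 goes against.

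Mrps24, a small-subunit protein at the entry of the message, had 29.0 FPKM in labelled Erk-/- MII and was listed at 0 in wild-type MII, the highest ratio among members with at least 10 FPKM in either library. Mrpl33 (12.2 FPKM), Mrpl20 (10.4) and Mrps12 (10.2) in labelled Erk-/- MII were also listed at 0 in wild-type MII. With both values above 0, Mrps18b had 23.6 FPKM (17.6 to 25.3) in labelled Erk-/- MII and 2.20 (1.26 to 3.10) in wild-type MII, 10.7-fold higher. Mrps31 had 6.48 FPKM in labelled Erk-/- MII and 0.776 in wild-type MII, 8.35-fold higher. Mrpl4, a counterpart of a bacterial protein of the exit tunnel, had 34.2 FPKM (27.3 to 34.8) in labelled Erk-/- MII and 4.98 (3.42 to 6.44) in wild type. Mrpl22, also of the tunnel, had 52.8 FPKM in labelled Erk-/- MII and 12.0 in wild type, 4.39-fold higher. The lower members included Mrpl54 (0.217 FPKM in labelled Erk-/- MII and 20.2 in wild-type MII), Mrpl53 (3.0-fold lower) and Mrpl14 (2.90-fold lower). Mrps21 was 1.78-fold lower (77.7 FPKM in labelled Erk-/- MII and 138 in wild-type MII), which did not reach 2-fold as deposited and did after scaling (log2 ratio -1.36).

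The difference of maturation ratios, labelled Erk-/- minus wild type, uses all 4 libraries and shares them with the comparisons above. It was at least 2-fold positive in 40 of 75 members (53.3%, against 41.2% of all genes tested) and negative in 13 (17.3%, against 18.8%), with a median of 1.07 over the members and 0.59 over all genes. Of the 53 called members 75.5% were positive, against 68.7% of all called genes. After median-of-ratios scaling 64.7% were (33 positive and 18 negative), against 55.2% of all called genes. Its highest values were those of Mrpl42 (log2 difference 8.70), Mrpl36 (8.39), Mrpl47 (8.06) and Mrps11 (7.47). All 4 had their highest level in wild-type GV, were listed at 0 in wild-type MII and in Erk-/- GV, and had 5.47, 6.42, 6.82 and 6.21 FPKM in labelled Erk-/- MII. Among members of at least 10 FPKM in a library, its lowest values were those of Mrpl3 (-5.64), Mrps28 (-3.90), Mrps10 (-3.78) and Mrpl54 (-3.26), while Mrpl15 (-4.59) lay under 10 FPKM in every library. Mrpl3, Mrps28 and Mrpl15 were listed at 0 in wild-type GV, so the extremes at both ends rest on a 0 at GV, except for Mrps10 and Mrpl54. These rest on values near 0 as well. Mrps10 was listed at 0 in wild-type MII and had 0.107 FPKM (0 to 0.517) in wild-type GV. Mrpl54 had 0.217 FPKM (0 to 0.461) in labelled Erk-/- MII.

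**Figure D4:**
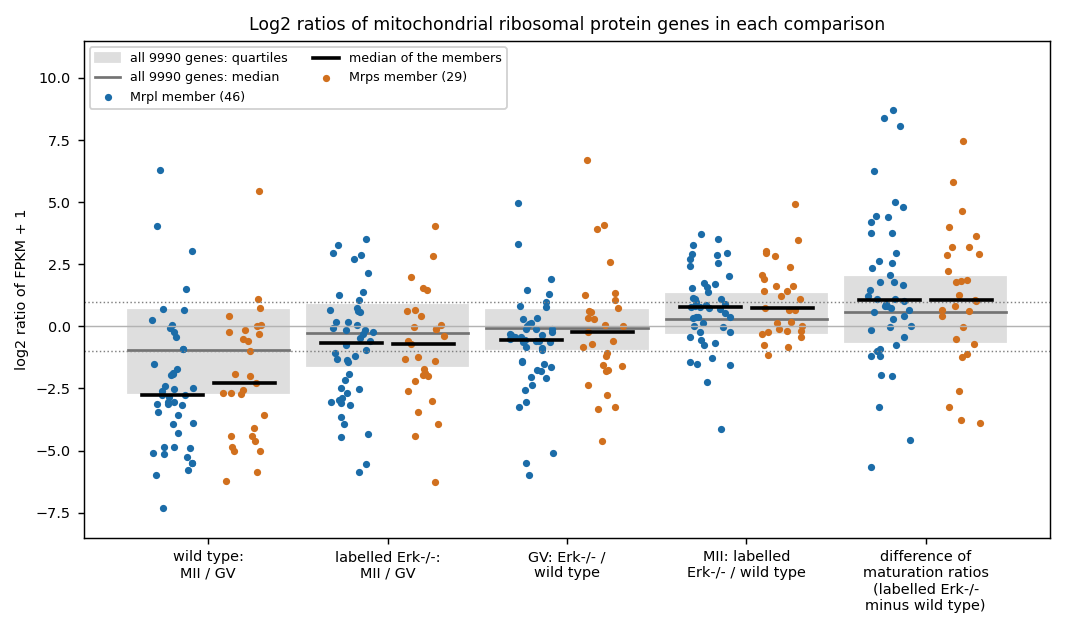
Log2 ratio of FPKM + 1 of each Mrpl (46) and Mrps (29) member in the 5 comparisons, with the median of each subunit (black bars) and the median and quartiles of all 9990 genes (grey); dotted lines mark 2-fold. Both subunits lie below the median of all genes in wild-type maturation, at medians of -2.77 and -2.30, and above it at MII between genotypes, at 0.77 and 0.74.

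Large- and small-subunit genes had similar counts and medians in most comparisons. In wild-type maturation 33 of 46 Mrpl members (71.7%) and 17 of 29 Mrps members (58.6%) were lower, against 49.6% of all genes, with medians of -2.77 and -2.30. In the libraries labelled Erk-/- 21 of 46 Mrpl (45.7%) and 14 of 29 Mrps members (48.3%) were lower, against 35.6% of all genes, with medians of -0.68 and -0.73. Between genotypes at GV 15 of 46 Mrpl (32.6%) and 11 of 29 Mrps members (37.9%) were lower in Erk-/-, against 22.9% of all genes. Higher in Erk-/- GV were 5 Mrpl (10.9%) and 7 Mrps members (24.1%), against 18.4% of all genes, with medians of -0.54 and -0.22. At MII 18 of 46 Mrpl (39.1%) and 14 of 29 Mrps members (48.3%) were higher, against 31.4% of all genes, with medians of 0.77 and 0.74. Lower there were 6 Mrpl (13.0%) and 1 Mrps members (3.45%), on either side of the 7.43% of all genes. Median differences of maturation ratios were 1.07 in both. Mrpl genes made up 52.7% of the members' summed FPKM in labelled Erk-/- MII, 56.2% in wild-type MII, 55.5% in Erk-/- GV and 65.5% in wild-type GV, the last being 58.9% without Mrpl14. Members and subunits are not replicates, so these values are a description only.

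Names and places of the proteins do not match for 2 Mrps genes: the proteins of Mrps18a and Mrps30 sit in the large subunit. Counted by place, and without Mrps36, the medians of wild-type maturation were -2.77 for 48 large-subunit genes and -2.42 for 26 small-subunit genes. Mrps30 had 2.03 FPKM in labelled Erk-/- MII, 5.66 in wild-type MII, 6.5 in Erk-/- GV and 24.3 in wild-type GV. The Mrps18 paralogs are 3 genes related to 1 bacterial protein, of which Mrps18b and Mrps18c serve the small subunit. Mrps18a had 7.29 FPKM in labelled Erk-/- MII, 7.44 in Erk-/- GV and 56.4 in wild-type GV, Mrps18c had 1.36 FPKM in labelled Erk-/- MII, 49.2 in Erk-/- GV and 74.2 in wild-type GV, and both were listed at 0 in wild-type MII. All 3 paralogs were lower at MII in wild type, and in the labelled Erk-/- libraries Mrps18b (4.76-fold) and Mrps18c (36.1-fold) were lower while Mrps18a had nearly equal values.

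Members were also grouped by a list of those whose protein has a bacterial counterpart. Of 45 tested genes on the list, 27 (60%) were lower and 6 (13.3%) higher in wild-type maturation, with a median of -2.53. Of the 30 other genes, 23 (76.7%) were lower and none was higher, with a median of -2.87. All genes tested were lower in 49.6% and higher in 20.6%. The list holds Mrps18c and leaves Mrps18a and Mrps18b among the others, although these paralogs are related to the same bacterial protein, and both are among the 23 lower genes. At MII, 19 of 45 (42.2%) and 13 of 30 (43.3%) were higher in the library labelled Erk-/-, against 31.4% of all genes, with medians of 0.74 and 0.88.

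Listings at 0 were unequal between libraries. In wild-type MII 24 of the 76 members (31.6%) were listed at 0, against 18.8% of all 9990 tested genes, and in labelled Erk-/- MII 3 (3.95%) were, against 7.34%. In Erk-/- GV there were 7 (9.21%, against 11.0%) and in wild-type GV 6 (7.89%, against 8.87%). In wild-type MII alone 16 members were listed at 0 (Mrpl12, Mrpl13, Mrpl17, Mrpl33, Mrpl38, Mrpl41, Mrpl43, Mrpl52, Mrpl55, Mrps10, Mrps12, Mrps15, Mrps18a, Mrps18c, Mrps24 and Mrps27), and 6 more in both wild-type MII and Erk-/- GV (Mrpl16, Mrpl20, Mrpl36, Mrpl42, Mrpl47 and Mrps11). Mrpl23 and Mrpl45 were listed at 0 in labelled Erk-/- MII only, with 77.9 and 14.6 FPKM in wild-type GV. Members with a 0 had shorter transcripts (median 940 nt, 29 genes, longest protein-coding transcript in GENCODE M21) than those without (median 1506.5 nt, 46 genes) and lower mean levels (median 12.8 and 32.4 FPKM), and the part of length or level in these zeros was not tested. Transcript length and the wild-type maturation ratio had a Spearman correlation of 0.13 over the 75 members.

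Other genes of the mitochondrial translation system, taken from 4 lists, were mixed. Their counts stand beside the same shares of all genes tested: 49.6% lower and 20.6% higher in wild-type maturation, 35.6% lower and 22.9% higher in maturation labelled Erk-/-, and 31.4% higher between genotypes at MII. Of 7 mitoribosomal proteins with other names, 4 were lower and 2 higher in wild-type maturation (median -1.08), and 3 were higher and none lower at MII in the library labelled Erk-/-. Ict1, a ribosome-bound peptidyl-tRNA hydrolase, had 57.8 FPKM in Erk-/- GV and 32.3 in wild-type GV and was listed at 0 in both MII libraries. Gadd45gip1 had 8.43 FPKM in labelled Erk-/- MII and 1.58 in wild-type MII, against 137 in Erk-/- GV and 115 in wild-type GV. In contrast Ptcd3, a small-subunit protein, had 30.8 FPKM in labelled Erk-/- MII, 17.2 in wild-type MII, 20.1 in Erk-/- GV and 3.71 in wild-type GV. Mrp63 had 19.4 FPKM in labelled Erk-/- MII, 29.1 in wild-type MII, 1.41 in Erk-/- GV and 9.80 in wild-type GV.

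Among translation factors 9 of 11 tested genes were lower and 2 higher in wild-type maturation (median -2.38), and 6 lower and 2 higher in the libraries labelled Erk-/- (median -1.47). The same 2 were higher in both: the elongation factor gene Gfm1 had 62.6 FPKM in labelled Erk-/- MII and 104 in wild-type MII, against 23.2 in Erk-/- GV and 34.6 in wild-type GV, and Tsfm, which recharges the elongation factor encoded by Tufm, had 31.6 FPKM in labelled Erk-/- MII, 53.0 in wild-type MII, 11.7 in Erk-/- GV and 11.2 in wild-type GV. Tufm itself, lower at MII in wild type, had 1.13 FPKM in labelled Erk-/- MII, 2.0 in Erk-/- GV and 12.2 in wild-type GV and was listed at 0 in wild-type MII. Of 17 tested assembly factors, 8 (47.1%) were lower and 4 (23.5%) higher in wild-type maturation (median -0.74), close to the shares of all genes. Their differences of maturation ratios were positive in 6 (35.3%, against 41.2% of all genes tested) and negative in 7 (41.2%, against 18.8%). Of 12 tested transcription and RNA factors 8 were lower and 3 higher in wild-type maturation (median -2.87). Slirp, which stabilises mitochondrial mRNA, had 1.46 FPKM in labelled Erk-/- MII and 4.28 in wild-type MII, against 58.4 in Erk-/- GV and 114 in wild-type GV, while the helicase gene Supv3l1 had 87.0 FPKM in labelled Erk-/- MII, 131 in wild-type MII, 20.6 in Erk-/- GV and 51.0 in wild-type GV.

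A pair of gene sets of the same kind were set beside the members. Cytosolic ribosomal protein genes, chosen by the same form of symbol, were lower in 62 of 72 (86.1%) in wild-type maturation (median -3.41), and at MII 39 of 72 (54.2%) were higher in the library labelled Erk-/- (median 1.34). Respiratory complex I genes, whose products meet those of mitochondrial translation in 1 complex, were lower in 32 of 42 (76.2%) in wild-type maturation (median -2.03), and 23 of 42 (54.8%) were higher at MII (median 1.30). Corresponding values of the mitochondrial ribosomal protein genes were 66.7% (median -2.61) and 42.7% (median 0.76), and those of all genes 49.6% (median -0.97) and 31.4% (median 0.31). Differences between these sets were not tested.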

How the data were processed

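Each library has 1 table of FPKM from the authors, with confidence bounds on either side of the value, as the headers state. CASAVA 1.8, TopHat and the mm9 build are named, per the submitters' processing notes. Not given in the sources used here were the program behind the FPKM, the annotation, the confidence level and the handling of reads with several matches. FPKM holds no counts, so depth is unknown. The bounds cover uncertainty within a library only. Among members of at least 10 FPKM within their bounds, the median half-width was 14.2% of the value in labelled Erk-/- MII, 15.4% in wild-type MII, 14.9% in Erk-/- GV and 12.2% in wild-type GV. Values of 10, 11, 19 and 35 members lay above their own upper bound in these libraries, and no bounds are quoted for them.

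Each file held 23813 rows for 23309 symbols, and the 260 symbols on several rows were summed. Locus starts were taken to count from 0 and 1 was added. Groups came from the sample titles. Ratios are log2((FPKM + 1)/(FPKM + 1)) over genes whose mean reached 1 FPKM, computed in Python 3.11.15 with pandas 2.3.3 and tested on simulated data. With 1 library per group no test was run, and a fixed size of 2-fold was used. Named are the 6 members of each subunit with the highest mean, the 4 highest and 4 lowest ratios of each comparison among members of at least 10 FPKM in a library compared, members of at least 10 FPKM listed at 0 elsewhere, the Mrps18 paralogs and the member under the minimum. Mrpl2, Mrpl4, Mrpl15, Mrpl16, Mrpl17, Mrpl22, Mrpl50, Mrpl51, Mrps9, Mrps14, Mrps30, Mrps31 and Mrps34 were added after their values were seen. Members and lists were chosen with earlier results of these data known. Of the 9 symbols listed for mitoribosomal proteins with other names 7 were found, as were 13 of 16 translation factors, 21 of 27 assembly factors and all 13 transcription and RNA factors. Transcript lengths and divergent neighbours come from GENCODE M21 (GRCm38), promoter windows from RefSeq (GRCm38.p6), and all other coordinates from the files (mm9). Alternatives tried are other pseudocounts, filters, scaling, fold limits, treatment of zeros, of bounds and of repeated symbols, and subunits by place.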

Additional observations from a re-analysis of the deposited data

Results flagged for a closer look

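For 8 members the single wild-type pair and the single labelled Erk-/- pair of libraries moved at least 2-fold in opposite directions, and this difference was not tested. In 7 of them the MII level was lower in wild type but higher in the labelled Erk-/- pair, namely Mrpl42 (difference of log2 ratios 8.70), Mrpl36 (8.39), Mrpl47 (8.06), Mrps11 (7.47), Mrpl43 (4.8), Mrps17 (4.66) and Mrpl16 (4.41). Mrpl15 went the other way (-4.59). The 7 were 9.33% of the members tested, against 4.47% of all genes tested, and Mrpl15 was 1.33%, against 1.79%. Of these 8, Mrpl42, Mrpl36, Mrpl47, Mrps11 and Mrpl16 were listed at 0 in wild-type MII and in Erk-/- GV, Mrpl43 in wild-type MII and Mrpl15 in wild-type GV. Mrps17 was above 0 in all 4 libraries, with 28.6 FPKM in labelled Erk-/- MII, 9.99 in wild-type MII, 6.39 in Erk-/- GV and 68.5 in wild-type GV.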

How the results depend on the processing

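Median-of-ratios scaling moved the median log2 ratio of all genes by 0.67 in wild-type maturation, 0.18 in the libraries labelled Erk-/-, 0.06 between genotypes at GV, -0.31 at MII, and that of the differences between maturation ratios by -0.49. Under it, wild-type maturation had 11 members higher (14.7%, against 29.6% of all genes) and a median of -1.88 (all genes -0.30), and 12 members were lower at MII in the library labelled Erk-/-. Without genes listed at 0 in any library 46 members were left. Of these, 29 (63.0%, against 45.9% of all genes) were lower and 2 higher in wild-type maturation, 18 (39.1%, against 31.9%) lower and 5 higher in the libraries labelled Erk-/-, 15 (32.6%, against 17%) lower and 4 higher in Erk-/- at GV, and 15 (32.6%, against 28.4%) higher and 4 lower at MII, with differences of maturation ratios positive in 23 (50%, against 36.4%) and negative in 6. The excess of members over all genes at MII was thus smaller without zeros than the 42.7% against 31.4% reported. At a mean of at least 10 FPKM, 55 members were left. Of these, 7 (12.7%, against 22.1% of all genes) were higher in labelled Erk-/- maturation and 17 (30.9%, against 14.9%) lower in Erk-/- at GV. At MII 4 were lower, and 8 differences were negative. The Mrpl minus Mrps median in labelled Erk-/- maturation was -0.56 (0.04 as reported). Under a limit of 4-fold, 23 (30.7%, against 19.3% of all genes) were lower and 9 (12%, against 9.48%) higher in labelled Erk-/- maturation. At GV 14 (18.7%, against 11.1%) were lower and 6 (8%, against 8.57%) higher. At MII 17 were higher and 2 lower, and 26 differences were positive and 7 negative. Leaving out genes above their own upper bound gave 22 of 37 lower (59.5%, against 49.5% of all genes) and a median of -1.93 in wild-type maturation. Lower in labelled Erk-/- maturation were 23 of 54 (42.6%, against 35.7%), and at GV 11 of 38 (28.9%, against 23.4%). Of 35 differences, 19 were positive and 6 negative. Under these last settings no share of all genes is given for the counts at MII and of differences. A pseudocount of 0.1 gave a median difference of 1.66. None of the members' 5 medians changed sign under these settings, while the Mrpl minus Mrps medians were small and changed sign under 1 or more of them in every comparison except wild-type maturation. Asking also, as a rule chosen after seeing the data, that the deposited bounds not overlap left the counts of members called in the 4 comparisons of library pairs as they were. At the median half-widths of 12.2% to 15.4%, the bounds of values 2-fold apart do not overlap. This rule thus had little room to change a call and gives no further support. It also used the bounds of values that lay above them. For single named members, 395 values kept their call, 26 passed and 6 lost the 2-fold limit under the pseudocount or scaling, and 13 values within 2-fold changed sign. No paired analysis was possible because the groups compared have 1 library each and share fewer than 2 replicate numbers, and leaving out a library empties its group. A fit of stage with genotype as an additive term, which would take the difference between genotypes as its error, was not run. Depth is unknown, so no limit of detection can be given for values listed at 0.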
